A study of Mus musculus with 2 samples.

Results

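The matrix metalloproteinases (MMPs), the ADAMTS proteases and the tissue inhibitors of metalloproteinases (TIMPs) were described across the cells of obese visceral fat. Every gene of the counts table named Mmp plus digits, Adamts plus digits or Timp plus a digit was taken, which gave 42 of 30084 genes. They were 19 MMP, 19 ADAMTS and 4 TIMP genes. The stromal vascular fraction, the cells other than adipocytes, had been released from epididymal fat by enzymatic digestion with Liberase and profiled by single-cell RNA sequencing on a microwell system (BD Rhapsody) with TAS-Seq amplification. The donors were male mice on a C57BL/6J background, Mincle-deficient or wild-type, and every mouse was fed high-fat chow for 15 weeks. Suspensions were marked with hashtag antibodies, and both genotypes were pooled and loaded together as 20000 cells. No label ties a hashtag to a genotype or gives the number of mice behind it. Mincle-deficient and wild-type cells were therefore not compared, no lean mice were analysed here, and the pool is 1 sample. No test was run and no p-value is given. Values are for the pool and for each of the hashtags A0309, A0310, A0311 and A0312, which show how evenly a level was spread over 4 suspensions and are not replicates of a group.

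MMPs are zinc-dependent endopeptidases that together can cleave most proteins of the extracellular matrix. Most are secreted as inactive proenzymes, and a smaller group is tethered to the cell membrane. ADAMTS proteases are secreted enzymes with thrombospondin repeats, and among them are aggrecanases, which cut large proteoglycans such as versican, and procollagen N-proteinases, which trim procollagen so that fibrils can form. TIMPs bind the active site of MMPs and, for Timp3, also of several ADAM and ADAMTS enzymes. In growing fat the matrix around each adipocyte has to be opened and rebuilt, and obese fat is known for fibrosis.

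In all, 651658017 counts were spread over 15741 cells. A cell had 6596 to 473807 counts, 34182 at the median. After removal of 367 doublets named by the authors and of cells with poor RNA quality, 15192 cells were clustered without the members, so that no protease or inhibitor helped to define a class. The classes were 8527 macrophage-like, 3339 fibroblast-like, 946 endothelial-like, 222 mural-like, 216 dendritic-like, 207 T-cell-like, 154 monocyte-like and 142 NK- or ILC-like cells. Mesothelial-like cells (17) and lymphatic-endothelial-like cells (15) were too few to rank, and 1407 cells stayed unnamed, of which 1196 carried markers of 2 lineages. Median counts per cell were 40501 in the macrophage-like class and 35867 in the fibroblast-like class but only 9916 in T-cell-like and 12910 in endothelial-like cells, so levels are given as CPM, a class's summed counts of a gene scaled to its summed counts of all genes. Intervals are 95% exact Poisson intervals of the summed count and cover counting error only. Levels are compared within a gene across classes and not between genes.

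The members lie on many chromosomes, but 10 of them are on chromosome 9, and 7 of these form a run of neighbouring Mmp genes at chr9:7272514-7674979 (GRCm38, 402466 bases). In map order they are Mmp13, Mmp12, Mmp3, Mmp10, Mmp8, Mmp27 and Mmp20. The 7 neighbours did not all share a cell class. Mmp12 and Mmp13 were highest in macrophage-like cells, Mmp3 in fibroblast-like cells and Mmp8 in monocyte-like cells, while Mmp10, Mmp20 and Mmp27 stayed under 5 CPM in each class ranked. RefSeq promoter windows of GRCm38.p6, from 250 bases before to 50 bases after a start, were matched for 28 of the 42 members. The letters TGANTCA, the core of an AP-1 site, which reads the same on both strands, were found in 5 of these 28 members, Mmp3, Mmp10, Mmp12, Mmp13 and Mmp20, all in the chromosome 9 run, against 7.81% of 32851 windows of all genes. TATAAA was found on either strand in 7 of 28 members against 13.6% of windows, and both motifs in 5 of 28 against 1.54%. GGGCGG, a GC box, was found on either strand in 18 of 28 members against 35.7% of windows. A member was counted once if any of its windows matched, whereas the shares over all genes are per window. Of the 30 member windows, 5 held TGANTCA, 7 TATAAA, 18 GGGCGG and 5 both TGANTCA and TATAAA. None of the 10 ADAMTS or 4 TIMP members matched held TGANTCA. The 120 bases before the start are printed 5′ to 3′ for 4 genes of the run and, for contrast, for the membrane protease Mmp14 and the inhibitor Timp3. Capitals mark the 3 motifs on either strand.
Mmp13: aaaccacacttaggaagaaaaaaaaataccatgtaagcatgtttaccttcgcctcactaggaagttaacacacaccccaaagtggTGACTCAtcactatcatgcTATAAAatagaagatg
Mmp12: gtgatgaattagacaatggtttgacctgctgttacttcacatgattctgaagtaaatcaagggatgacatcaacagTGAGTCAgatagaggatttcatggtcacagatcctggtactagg
Mmp3: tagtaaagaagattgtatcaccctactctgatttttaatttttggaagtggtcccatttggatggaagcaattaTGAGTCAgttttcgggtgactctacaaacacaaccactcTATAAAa
Mmp10: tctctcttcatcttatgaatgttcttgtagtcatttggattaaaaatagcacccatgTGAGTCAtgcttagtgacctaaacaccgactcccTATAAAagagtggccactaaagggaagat
Mmp14: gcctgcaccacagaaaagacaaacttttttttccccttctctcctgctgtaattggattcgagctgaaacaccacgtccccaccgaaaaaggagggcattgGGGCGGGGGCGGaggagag
Timp3: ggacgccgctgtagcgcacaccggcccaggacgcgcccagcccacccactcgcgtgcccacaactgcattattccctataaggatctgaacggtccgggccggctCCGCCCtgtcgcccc
The stretches lie at chr9:7272394-7272513 for Mmp13, chr9:7347254-7347373 for Mmp12, chr9:7445702-7445821 for Mmp3, chr9:7502222-7502341 for Mmp10, chr14:54431478-54431597 for Mmp14 and chr10:86300292-86300411 for Timp3, all on the plus strand. The Mmp12 stretch belongs to the second of its 2 starts in the table. Its TATAAA begins 4 bases after that start, beyond what is printed, and the window of its other start held none of the 3 motifs. A match is a description of the letters only: Mmp10, which holds both TGANTCA and TATAAA, was at 0.756 CPM at most in any class.

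Of the 42 members, 32 reached 5 CPM in at least 1 of the 8 classes ranked. A leading class was called where the log2 of CPM plus 1 was at least 1 above that of every other class, in the pool and in each hashtag with at least 20 cells of that class. A leading class was called for 19 of the 32 members, against 9.51% of the 15084 genes at that level. Fibroblast-like cells led for 9 members (2.57% of genes), mural-like cells for 4 (2.26%), macrophage-like cells for 2 (0.729%), and endothelial-like (2.31%), monocyte-like (0.391%), T-cell-like (0.351%) and NK- or ILC-like cells (0.358%) for 1 each. Dendritic-like cells led for none (0.537%). The 32 members passed a filter on the highest class, so these shares describe the genes detected and not all 42. The heat map of levels by class shows a broad fibroblast-like block beside narrow single-class columns.

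**Figure D1:**
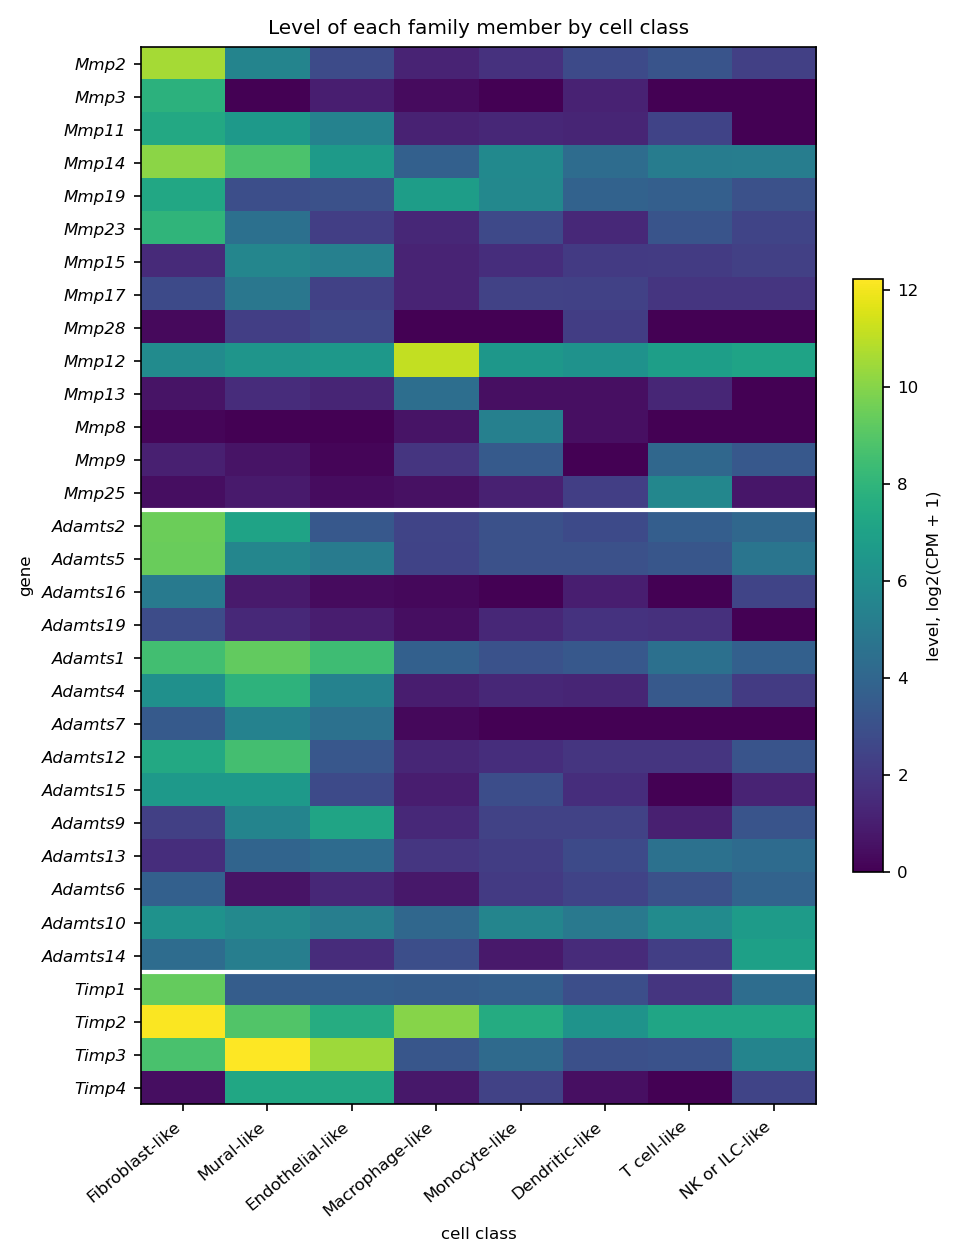
Level of the 32 members at 5 CPM or more by cell class, as log2 of CPM plus 1 over the pool, with genes as rows and classes as columns. Fibroblast-like cells lead for 9 of the 19 members with a called leading class, mural-like cells for 4 and macrophage-like cells for 2.

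Fibroblast-like cells held most counts of the gelatinase Mmp2 and of the membrane-bound Mmp14, which activates it at the cell surface. Mmp2 was at 1326, 1709, 1453 and 1561 CPM in fibroblast-like cells of the 4 hashtags, against 17.4, 103, 48.1 and 26.4 CPM in mural-like cells, the next class ranked. The ranges did not meet, and 88.4% of the Mmp2 counts in the 15192 cells kept were in fibroblast-like cells; shares of counts by class are of the cells kept throughout. Values of Mmp2 below 6 and of Mmp3 below 5 are 0 in the deposited table, so the low end of both genes is cut off in every class. Mmp14 was at 1024, 1139, 1113 and 1110 CPM in fibroblast-like cells, against 405, 489, 491 and 389 CPM in mural-like cells. It had a count in 99.3% of fibroblast-like cells, and 82.8% of its counts were in that class. The stromelysin Mmp3, which cleaves proteoglycans and can activate other proMMPs, was at 234, 227, 251 and 218 CPM in fibroblast-like cells, against 1.22 CPM in dendritic-like cells, the next class. An Mmp3 count of 5 or more was seen in 21.7% of fibroblast-like cells, and 10 cells held 13.4% of the class's counts. Lower values are 0, so the share of cells with any Mmp3 is understated. Mmp23, a short membrane-anchored MMP, averaged 255 CPM over fibroblast-like cells (248 to 272 over hashtags), against 21.9 CPM in mural-like cells.

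Among the ADAMTS genes led by fibroblast-like cells, the procollagen N-proteinase Adamts2 was at 687, 727, 728 and 691 CPM in fibroblast-like cells of the 4 hashtags, against 99.4, 110, 217 and 125 CPM in mural-like cells. It was near uniform within the class, with a count in 98.1% of its cells. The aggrecanase Adamts5 was at 638, 774, 668 and 714 CPM in fibroblast-like cells, against 50.2, 65.6, 42.2 and 37.8 CPM in mural-like cells. Adamts16 was low and patchy, at 30.5 CPM over fibroblast-like cells (24.4 to 38.8 over hashtags) with a count in 14.8% of them, against 4.64 CPM in NK- or ILC-like cells. Adamts15, another enzyme of the aggrecanase group, was at 94.1 CPM in mural-like and 93.1 CPM in fibroblast-like cells, and the order of these 2 classes changed between hashtags. Stromelysin-3, the product of Mmp11, was at 166 CPM in fibroblast-like, 97.7 in mural-like and 41.3 in endothelial-like cells. Its fibroblast-like lead was not called, since in hashtag A0310 mural-like cells were higher (170 against 158 CPM). Adamts19 was at 6.22 CPM in fibroblast-like cells, with no called lead. Adamts6, at 13.9 CPM from 6 NK- or ILC-like cells and 12.4 CPM in fibroblast-like cells, had none either.

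**Figure D2:**
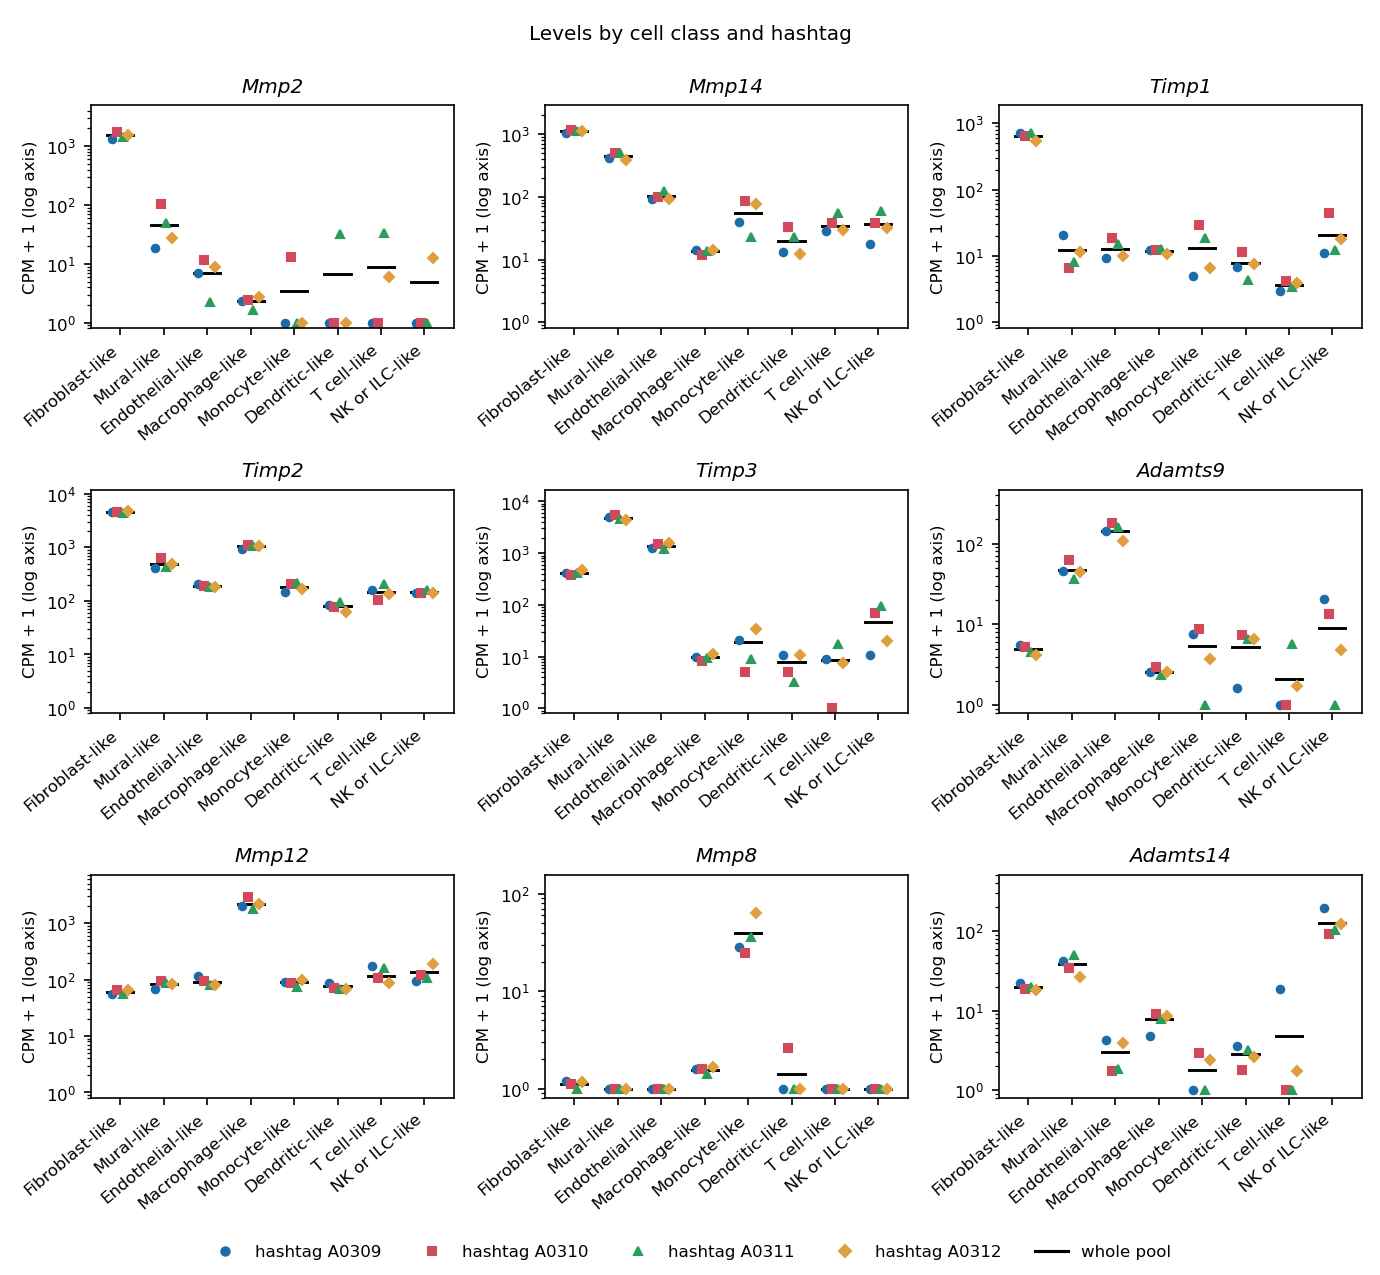
CPM plus 1 on a log axis for 9 members by cell class, with points for the hashtags that hold at least 20 cells of the class and a black line for the pool. Mmp2, Mmp14, Timp1 and Timp2 are highest in fibroblast-like cells, Timp3 in mural-like, Adamts9 in endothelial-like, Mmp12 in macrophage-like, Mmp8 in monocyte-like and Adamts14 in NK- or ILC-like cells.

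The series concerns macrophages and fibroblasts of fibrotic fat, and these 2 classes were compared directly. A member was called higher or lower when the pool and each hashtag holding 20 or more cells of both had a log2 ratio of CPM plus 1 of 1 or more, or all had -1 or less. Of 24 members at 5 CPM or more in either class, 21 were higher in fibroblast-like than in macrophage-like cells (18.9% of 12085 genes) and 2 were lower (14.1%). The median log2 ratio of the 24 was 4.98, against 0.02 over all genes tested and 1.44 over all 42 members. A gene that reached 5 CPM in a single class had to be higher there, though not by the size the rule asked. Among the 24, 14 reached 5 CPM in fibroblast-like cells alone and 1 in macrophage-like cells alone. Of the 9 members at 5 CPM or more in both classes, 7 were higher and 1 was lower. Among members whose low values were deposited in full, the largest ratios were those of Adamts5 (log2 ratio 7.01) and Adamts2 (6.98). The ratios of Mmp2 (9.36, 9.15 to 9.77 over hashtags) and Mmp3 (7.51) rest on macrophage-like levels of 1.32 and 0.279 CPM that the removal of low values can only have lowered, so both are left out of that order. Both lower members were Mmp12 (-5.22) and Mmp13 (-3.78). Mmp19 alone was called in neither direction. Procollagen N-proteinase Adamts14 had a small ratio, 18.8 CPM in fibroblast-like against 6.74 CPM in macrophage-like cells (log2 ratio 1.35), and Mmp17 likewise (5.70 against 1.32 CPM, 1.53). Both calls ended when CPM was raised by 5 in place of 1, at 1.02 for Adamts14 with 1 or more hashtags under the limit and at 0.76 for Mmp17.

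**Figure D3:**
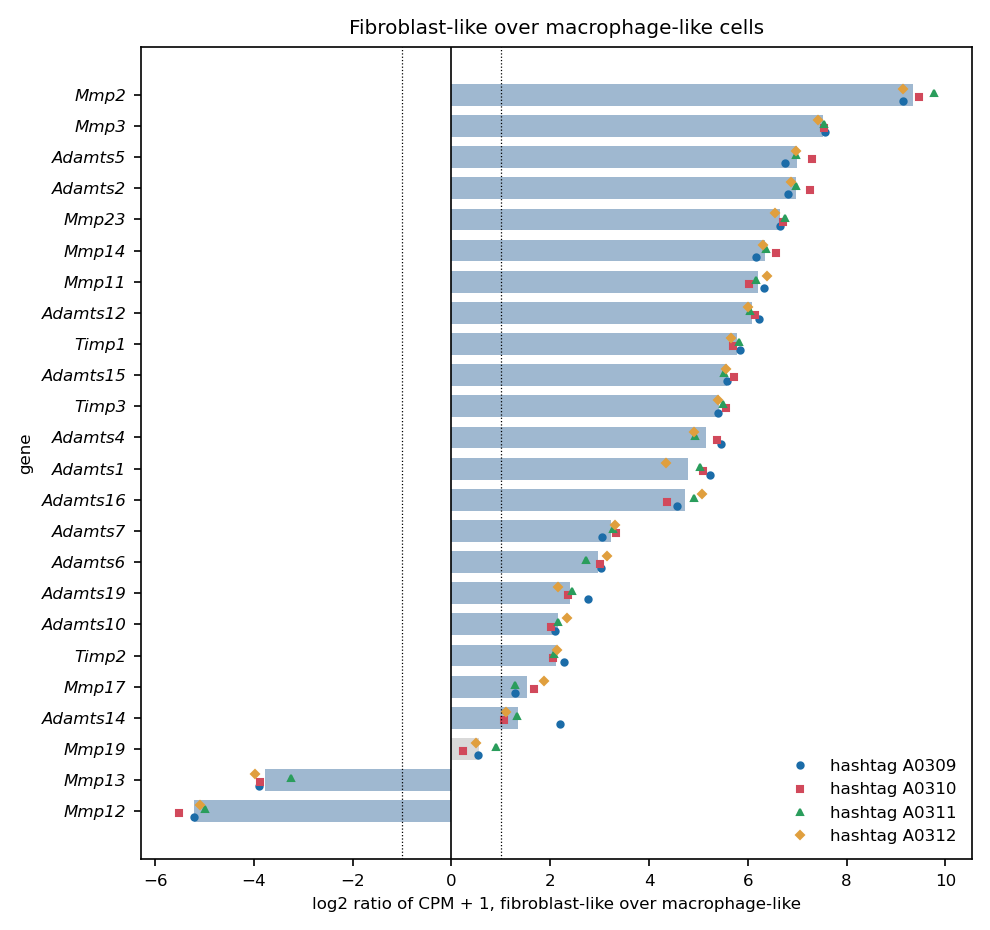
Log2 ratio of CPM plus 1, fibroblast-like over macrophage-like cells, for the 24 members at 5 CPM or more in either class, with points for the 4 hashtags, bars for the pool and dotted lines at the limits of the rule. Of these, 21 lie above the upper limit, Mmp12 and Mmp13 lie below the lower one, and Mmp19 lies between.

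Genes that act with these proteases were read from 6 lists in the same comparison. Of 12 matrix substrates, 11 were higher in fibroblast-like cells, including Col3a1, a fibrillar collagen (13362 against 2.12 CPM, log2 ratio 12.06), and the proteoglycan Bgn (3972 against 3.27 CPM, 9.86). Col1a1 and Col3a1, among the 11, were also markers that named the fibroblast-like class, so their direction was set by the naming. In the lists, values below 37 of Col3a1, 13 of Ctsb, 10 of Fn1, 9 of Bgn, 7 of Col4a1 and Ctsk and 6 of Col4a2 are also 0 in the deposited table, so the low level of each is understated. The exception among the substrates was Vwf, which was lower (1.78 against 8.01 CPM, -1.70). Of 8 genes for activation or anchoring of proteases in the table, 4 were higher and 1 lower. Plat, tissue plasminogen activator, was at 258 CPM in fibroblast-like and 2.09 CPM in macrophage-like cells (6.39), and the proprotein convertase Pcsk6 at 116 and 0.565 CPM (6.22), whereas Plaur, the urokinase receptor, was at 18.4 and 83.0 CPM (-2.12). Other inhibitors and clearance genes were higher for 6 of 7, among them Serpine2 (338 against 3.83 CPM, 6.13) and Tfpi2 (45.6 against 0.714 CPM, 4.76), and none was lower. Among 12 ADAM and ADAMTS-like genes, Adam12 (122 against 1.37 CPM, 5.69) and Adamtsl1 (37.8 against 0.219 CPM, 4.99) were the largest of 3 that were higher, and Adam8 was the single lower gene (13.5 against 540 CPM, -5.22). Of 4 genes of other collagen breakdown, the collagen receptor Mrc2 (218 against 1.39 CPM, 6.52) and the protease Fap (116 against 0.977 CPM, 5.89) were higher and cathepsin B, Ctsb, was lower (1317 against 8837 CPM, -2.75). Genes known to be induced by tissue digestion also differed: 5 of 8 were higher in fibroblast-like cells, led by Hspa1b (37.8 against 5.38 CPM, 2.60) and Egr1 (2285 against 557 CPM, 2.03), and their part in the protease levels was not tested. The median log2 ratio over each list in the table was 6.94 for substrates, 3.10 for activation and anchoring, 2.90 for other collagen breakdown, 2.47 for other inhibitors, 1.51 for digestion-induced genes and 0.68 for ADAM and ADAMTS-like genes.

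Macrophage-like cells made the elastase Mmp12, which degrades elastin and is a known product of tissue macrophages. Mmp12 was at 2016, 2946, 1742 and 2178 CPM in macrophage-like cells of the 4 hashtags, against 92.2, 121, 104 and 190 CPM in NK- or ILC-like cells, the next class. No hashtag of another class came near the macrophage-like range, and 93.1% of the Mmp12 counts in the cells kept were in macrophage-like cells. A count was nevertheless seen in 83.1% of the macrophage-like class and in 70.9% of the fibroblast-like class. With each cell thinned to 6000 counts the shares were 59.5% and 26.6%. The level in the 7 other classes ranked was 2.65% to 6.13% of that in macrophage-like cells, and 58.4 CPM in fibroblast-like cells. The 7 macrophage markers stood in fibroblast-like cells at 0.439% to 2.30% of their macrophage-like level (median 1.99%), all of them above 0. The 4 of these markers without removed low values stood at 1.99% to 2.30%. Free RNA gives such low shares in cells that do not make a transcript, and its part in the Mmp12 counts outside macrophage-like cells was not tested.

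The collagenase Mmp13 was at 20.7 CPM in macrophage-like cells (17.4 to 24.8 over hashtags), against 1.94 CPM in mural-like cells. Only 11.2% of macrophage-like cells had a count, and 10 cells held 11.5% of the class's counts. Mmp19, which cleaves basement membrane proteins, was shared by both lineages. It was at 167, 161, 167 and 151 CPM in fibroblast-like cells and 115, 137, 88.5 and 107 CPM in macrophage-like cells, with fibroblast-like cells higher in each hashtag by a log2 ratio of 0.23 to 0.91. The gelatinase Mmp9 had no called leading class: its 1392 counts in all 15741 cells were so uneven that 10 cells held 53.2% of them. Its highest class was T-cell-like, at 15.9 CPM from 9 cells, and in hashtag A0310 that class had no count.

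Within the macrophage-like cells, lipid-associated-like cells (951) were set against resident-like cells (172). The resident-like cells met Lyve1, Folr2, Cd163, Cbr2 and Gas6 of their marker list but not Timd4. Lipid-associated macrophages surround dying adipocytes in obese fat. Of their marker list, 821 cells met Gpnmb, Fabp5, Itgax, Lgals3, Dcstamp, Cd200 and Cdkn1c. The other 130 cells met Gpnmb, Cd63, Lgals3, Dcstamp and Cd200. Neither sub-cluster met Trem2, Cd9, Spp1, Lpl, Atp6v0d2 or Arg1 of that list. Of 14 members tested, 3 were called in lipid-associated-like cells: Mmp12 and Mmp19 higher (3.16% of 10842 genes) and Adamts10 lower (6.14%). The median log2 ratio was -0.75 over the 14 members, -0.10 over all 42 and -0.21 over all genes tested, and 6 of the 14 reached 5 CPM in 1 of the states alone. Mmp12 was at 6964, 6547, 5341 and 6349 CPM in lipid-associated-like cells, against 68.4, 56.6, 87.5 and 257 CPM in resident-like cells (log2 ratio 5.64, 4.62 to 6.83 over hashtags). The groups were far apart in every hashtag, and a single cell held 37.7% of the resident-like counts. Mmp12 took no part in the clustering or in the markers that named the states. Those marker lists were chosen with earlier results of these data known, so the naming was not independent of these data. Mmp19 was at 139, 176, 121 and 161 CPM in lipid-associated-like cells, against 23.9, 19.3, 19.2 and 30.8 CPM in resident-like cells (log2 ratio 2.60). Adamts10, a protease that binds fibrillin microfibrils, was at 10.1 CPM in lipid-associated-like and 32.5 CPM in resident-like cells (log2 ratio -1.59), and at Leiden resolution 2.0 the ratio was -0.83 and not called. Timp2 was 1186 CPM in lipid-associated-like and 1740 CPM in resident-like cells (log2 ratio -0.55), and its hashtag ranges of 1116 to 1236 and 1557 to 1848 CPM did not meet.

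Depth and digestion genes moved with the macrophage states. Median counts per cell were 69513 in lipid-associated-like and 21199 in resident-like cells. The 8 digestion-induced genes summed to 3841 CPM in lipid-associated-like and 12590 CPM in resident-like cells, and 7 of the 8 were lower, most of all Hspa1a (39.3 against 237 CPM, log2 ratio -2.57). Their part in the protease levels was not tested. From the other lists, cathepsin K, Ctsk, a collagen-degrading lysosomal protease, was higher in lipid-associated-like cells (1906 against 50.4 CPM, 5.21), as were Adam8 (784 against 89.9 CPM, 3.11) and Plaur (111 against 15.9 CPM, 2.73). Adam33 (5.57 against 28.9 CPM, -2.19) and the versican gene Vcan (1.37 against 6.26 CPM, -1.62) were lower. No other gene of the 5 lists of 8, 7, 12, 12 and 4 genes was called, and of the inhibitors none was.

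**Figure D4:**
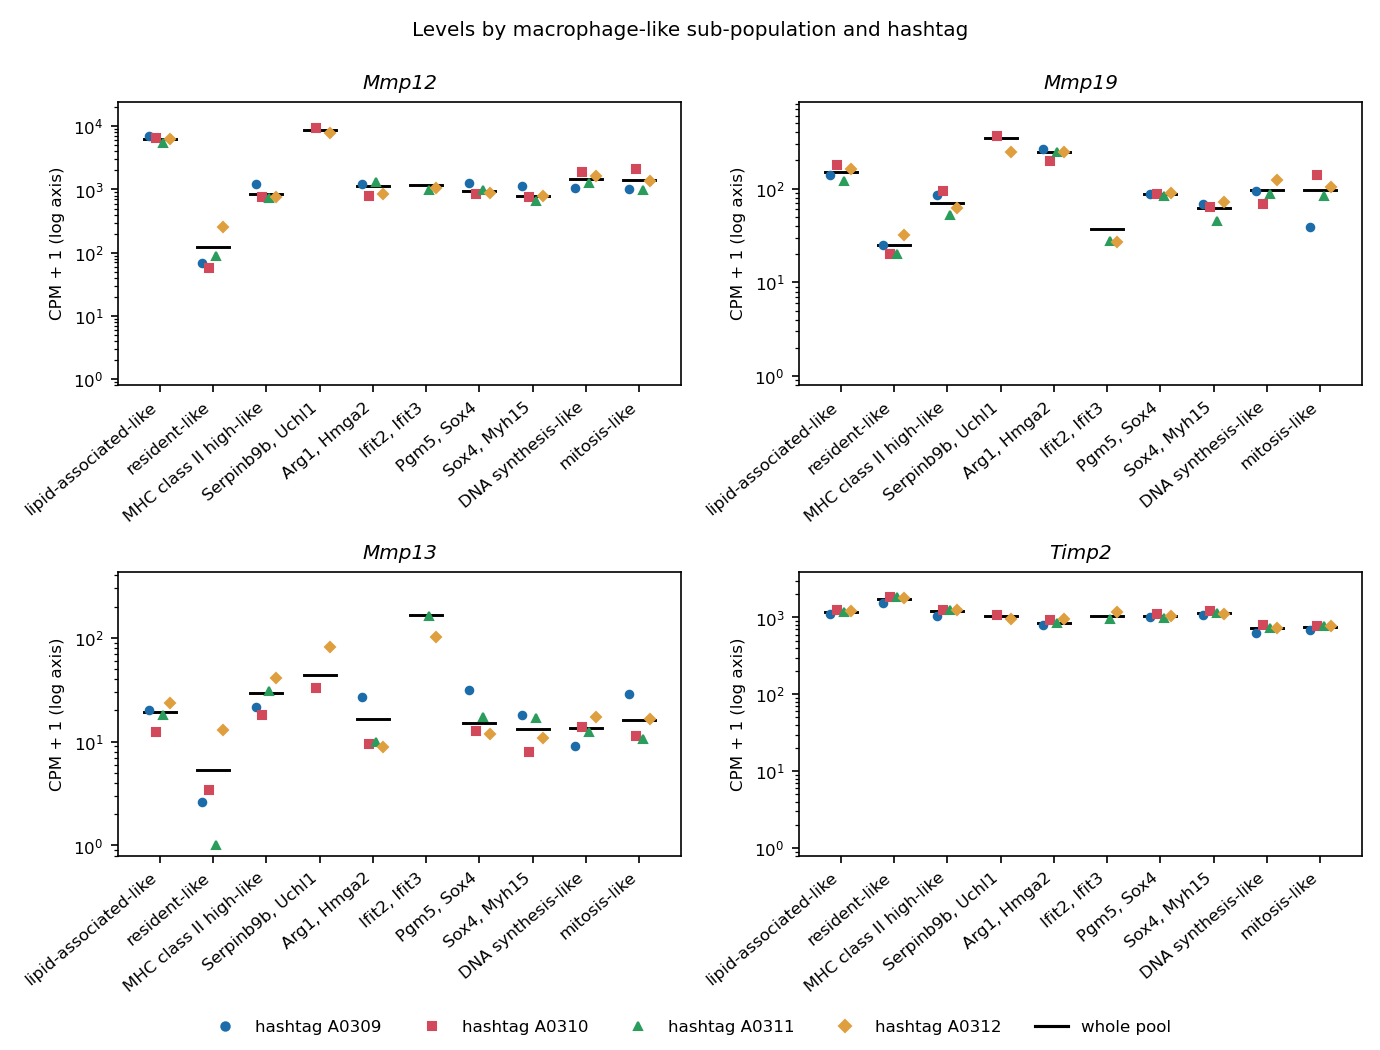
CPM plus 1 on a log axis for Mmp12, Mmp19, Mmp13 and Timp2 in 10 sub-populations of macrophage-like cells, with points for hashtags that hold at least 20 cells and a black line for the pool. Mmp12 is at 8740 CPM in the cells led by Serpinb9b, 6220 CPM in lipid-associated-like and 123 CPM in resident-like cells, while Timp2 stays between 723 and 1740 CPM.

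Across the sub-populations of macrophage-like cells, Mmp12 ran from 123 CPM in resident-like cells to 8740 CPM in an unnamed group of 213 cells led by Serpinb9b, Uchl1 and Cd5l. It was 1461 CPM in DNA-synthesis-like, 1392 CPM in mitosis-like, 1121 CPM in the cells led by Arg1 and 861 CPM in MHC-class-II-high-like cells. Mmp19 was highest in the same Serpinb9b group (345 CPM), followed by the Arg1 group (245 CPM, 481 cells). No member had a called leading state among the 16 tested in macrophage-like cells (2.97% of 11702 genes). The Serpinb9b group met under 33% of the lipid-associated marker list and had no state name. It was named lipid-associated-like when 3 markers alone were asked for, a setting added after the data were seen. Mmp13 reached 166 CPM in 61 cells led by the interferon-induced genes Ifit2, Ifit3 and Rsad2, where 24 cells had a count and 1 cell held 32.5% of the counts. Mmp9 was at 17.2 CPM in the Arg1 group, with 87.7% of those counts in 1 cell. Adamts1 was at 32.5 CPM and Adamts14 at 13.6 CPM in the cells led by Pgm5 and Sox4, against 12.4 and 6.74 CPM over all macrophage-like cells.

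Fibroblast-like cells were divided into Dpp4-progenitor-like (910), preadipocyte-like (974), inflammatory-like (1207), activated-like (119) and F3-like cells (94), and a further 35 cells led by Ifit1 stayed unnamed. Dpp4 progenitors are regarded as early cells of the adipogenic lineage and preadipocytes as committed ones. Of the preadipocyte-like cells, 546 met the state markers Fabp4, Lpl, Pparg and Cxcl14. The other 428 met Fabp4, Lpl, Cxcl14 and Tnc but not Pparg. Neither sub-cluster met Cd36 or Cebpa of that marker list. The leading genes of the 428 cells included Tagln and Notch3, which are markers of the mural-like class. The part of these 428 cells in the differences was not tested. Of 24 members tested between these 2 states, 5 were higher in Dpp4-progenitor-like cells (2.49% of 11396 genes) and 4 were lower (2.44%). The median log2 ratio was -0.18 over the 24 members, -0.09 over all 42 and -0.00 over all genes tested, and 18 of the 24 reached 5 CPM in both states. The higher members were Adamts16, Adamts19, Adamts6, Timp3 and Timp2, and the lower ones were Mmp3, Adamts7, Adamts12 and Mmp11.

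Adamts16 was at 76.7, 96.4, 121 and 127 CPM in Dpp4-progenitor-like cells, against 0.208, 1.95, 0.845 and 0.907 CPM in preadipocyte-like cells (log2 ratio 5.69). It was near absent from preadipocyte-like cells in every hashtag, and nearly all of its fibroblast-like counts, 3750 of 3901, lay in Dpp4-progenitor-like cells. Its lead over the other 4 named states was called, and a count was seen in 49.8% of Dpp4-progenitor-like cells. The 35 unnamed cells led by Ifit1 had 52.5 CPM, from 10 cells. Adamts6, which is related to Adamts10, was at 29.2 CPM in Dpp4-progenitor-like and 4.60 CPM in preadipocyte-like cells (2.43), and Adamts19 at 16.9 and 2.11 CPM (2.53). Timp3 and Timp2, the inhibitors, moved the same way. Timp3 was at 784, 810, 771 and 885 CPM in Dpp4-progenitor-like cells, against 216, 136, 178 and 262 CPM in preadipocyte-like cells (2.06). Timp2 was at 6065, 7145, 6391 and 7297 CPM in Dpp4-progenitor-like cells, against 2952, 2919, 2877 and 2933 CPM in preadipocyte-like cells (1.195). Neither inhibitor overlapped between the states, and Timp2 had a count in every cell of both.

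Stromelysin-1, the product of Mmp3, went the other way. It was at 30.9, 28.9, 67.3 and 27.9 CPM in Dpp4-progenitor-like cells, against 266, 320, 337 and 310.6 CPM in preadipocyte-like cells (log2 ratio -2.97). A count of 5 or more was seen in 4.40% of Dpp4-progenitor-like and 29.8% of preadipocyte-like cells. Lower values of Mmp3 are 0 in the deposited table, so shares and levels are understated in both states. The part of this cut in the ratio was not tested. The cartilage-protein-cleaving protease Adamts12 was at 83.1 CPM in Dpp4-progenitor-like and 266 CPM in preadipocyte-like cells (-1.67), and its relative Adamts7 at 3.87 and 15.2 CPM (-1.74). Mmp11 was at 48.8 CPM in Dpp4-progenitor-like and 156 CPM in preadipocyte-like cells (-1.66). With hashtags assigned from the tag table the Mmp11 ratio was -0.13, and none of Mmp11, Adamts12 (-1.69) and Adamts7 (-1.32) was called in every hashtag. Mmp14 missed the rule, at 662 and 1265 CPM (-0.93), as did Adamts15, at 57.3 and 114 CPM (-0.98). Mmp2, Timp1 and Adamts5 lay within a log2 ratio of 0.30 of equality.

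**Figure D5:**
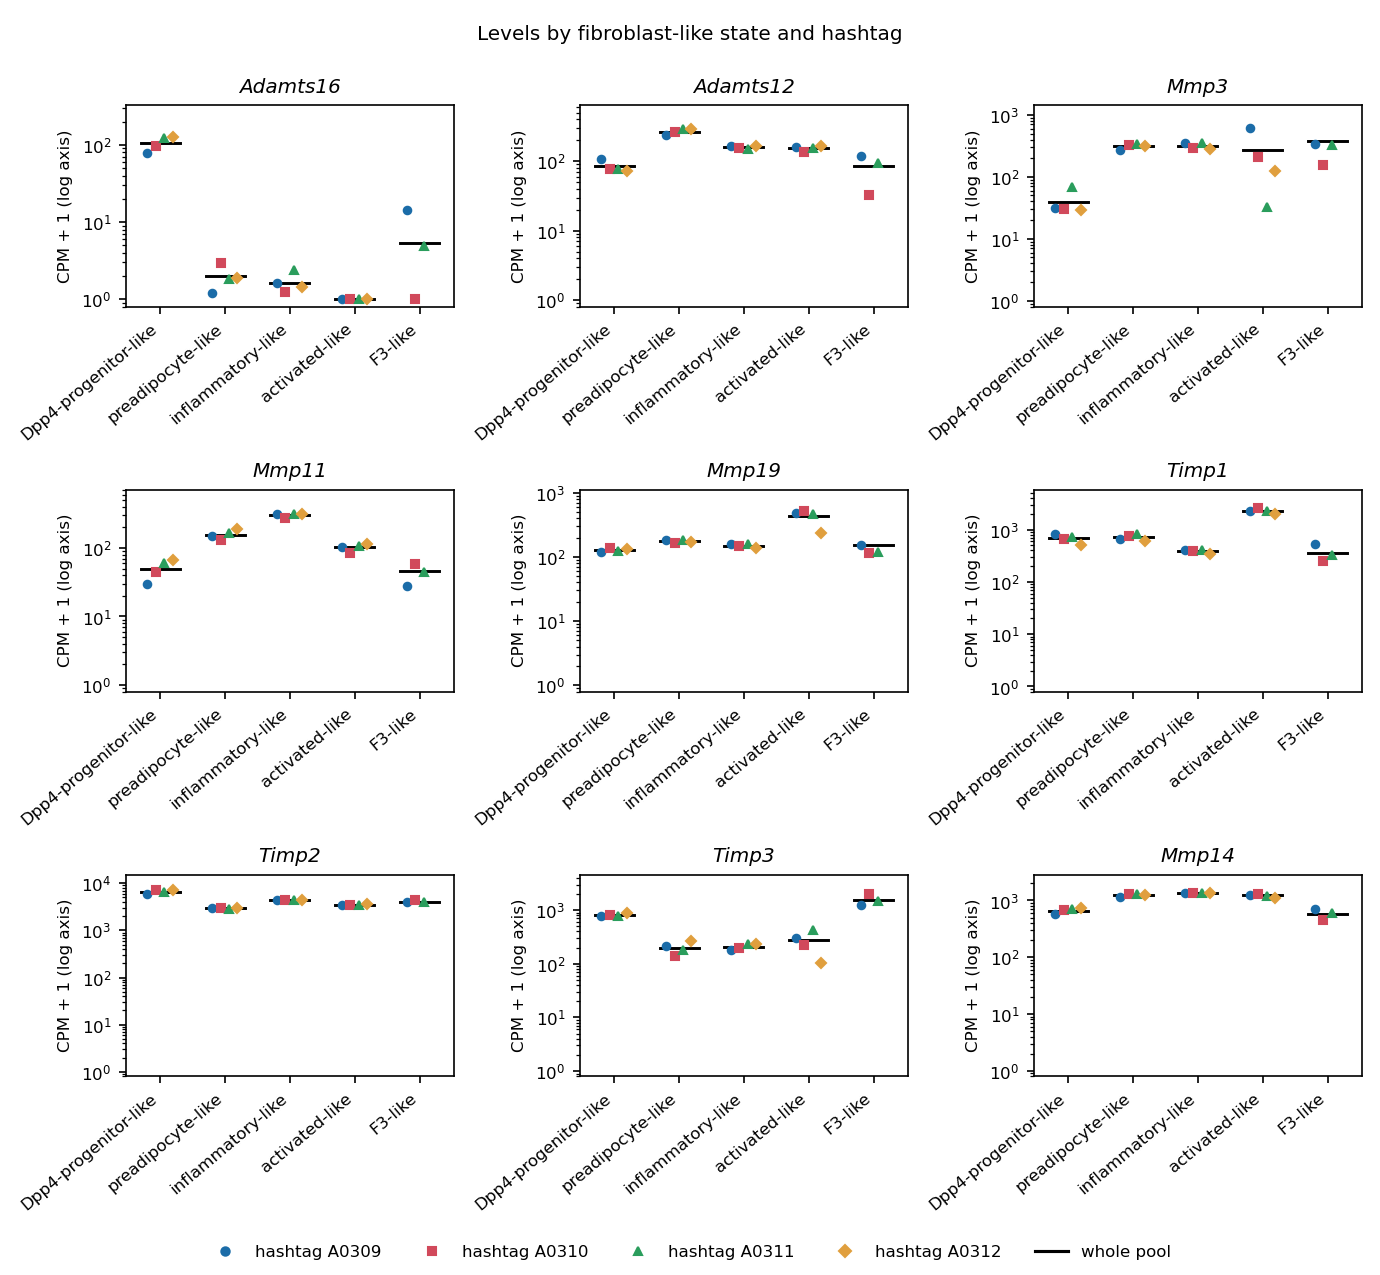
CPM plus 1 on a log axis for 9 members in 5 states of fibroblast-like cells, with points for hashtags that hold at least 20 cells and a black line for the pool. Adamts16 is at 104 CPM in Dpp4-progenitor-like cells and at most 4.32 CPM in the other 4, Mmp3 is lowest in Dpp4-progenitor-like cells, and Timp1 is highest in activated-like cells. Values of Mmp3 below 5 are 0 in the deposited table.

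The other fibroblast-like states had their own emphasis. Activated-like cells met Inhba, Ereg and Fosl1 of their marker list but not Areg or Lif. Their Timp1 was at 2321, 2573, 2328 and 1976 CPM, against 661, 741, 825 and 620 CPM in preadipocyte-like cells, the next state. Every activated-like cell had a Timp1 count, and this lead was called. Together with Adamts16 it made 2 leads among 26 members tested (2.17% of 12123 genes), 1 in Dpp4-progenitor-like (0.792%) and 1 in activated-like cells (0.437%). Mmp19 was also highest in activated-like cells, at 436 CPM against 174 CPM in preadipocyte-like cells, though hashtag A0312 was lower (238 CPM) and the lead was not called. Inflammatory-like cells met Agt, Rgs16 and Hp of their marker list but not C3 or Cxcl5. Among the named states they were highest in Mmp11, at 299 CPM against 156 CPM in preadipocyte-like cells. They were also highest in Adamts1 (546 CPM against 304.95 in F3-like cells) and in Mmp2 (2150 CPM against 1698 in activated-like cells). Their digestion-induced genes summed to 18316 CPM against 9116 to 11141 CPM in the other named states, and the part of digestion in these levels was not tested. F3-like cells had the highest fibroblast-like Timp3, at 1560 CPM against 810 CPM in Dpp4-progenitor-like cells, and a high Mmp3 (371 CPM), of which 1 cell held 35.3%.

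The companion genes also differed between the 2 main fibroblast-like states. In Dpp4-progenitor-like cells 1 of 12 substrates was higher, the fibronectin gene Fn1 (9539 against 3715 CPM in preadipocyte-like cells, log2 ratio 1.36), and 4 were lower, Col4a2 most (672 against 2136 CPM, -1.67). Pcsk6 was the single called gene of 8 for activation and anchoring and was higher (311.9 against 48.3 CPM, 2.66). Among 12 ADAM and ADAMTS-like genes, Adamtsl4 was higher (87.3 against 19.1 CPM, 2.13), and 2 were lower, with Adamtsl2 lowest (0.304 against 5.21 CPM, -2.25). Mrc2 was the only lower gene of 4 for other collagen breakdown (137 against 312.8 CPM, -1.19). None of the 7 other inhibitors and none of the 8 digestion-induced genes was called.

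The 4 inhibitors had different sources. Timp2, which both inhibits MMPs and serves Mmp14 in the activation of Mmp2, was at 4494, 4566, 4412 and 4788 CPM in fibroblast-like cells, against 922, 1095, 1042 and 1081 CPM in macrophage-like cells. It was the most widespread member in number of cells: 14728 of all 15741 cells had a count. In the cells kept, the fibroblast-like class held 51.6% of its counts and the larger macrophage-like class 38.4%. Timp1, a secreted inhibitor that is weak against membrane-bound MMPs, was at 708, 639, 713 and 538 CPM in fibroblast-like cells, against 9.88, 43.6, 11.2 and 17.1 CPM in NK- or ILC-like cells. Timp3, which stays bound to the matrix, was at 4930, 5449, 4601 and 4475 CPM in mural-like cells, against 1284, 1530, 1192 and 1556 CPM in endothelial-like cells and 417 CPM in fibroblast-like cells. Its mural-like lead was 1.80 on the log2 scale, but 1.03 and 1.18 at Leiden resolutions 0.5 and 2.0, where the rule was no longer met in every hashtag. Timp4 belonged to both vascular classes, at 165, 166, 121 and 187 CPM in endothelial-like and 203, 184, 66.8 and 171 CPM in mural-like cells, and these ranges overlapped.

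Mural-like cells, the pericytes and smooth muscle cells of vessel walls, led for the aggrecanase Adamts4, for Adamts12 and for Mmp17, a membrane-bound MMP, besides Timp3. Adamts4 was at 255, 186, 288 and 234 CPM in mural-like cells, against 72.4, 74.8, 64.2 and 60.6 CPM in fibroblast-like cells. Adamts12 was at 347, 374, 492 and 346 CPM in mural-like and 164, 164, 174 and 172 CPM in fibroblast-like cells, a lead of 1.196 on the log2 scale. That lead was -0.65 at Leiden resolution 0.5 and -0.088 at 2.0, so its class depends on how mural-like cells are drawn. Mmp17 was at 27.5 CPM in mural-like and 5.70 CPM in fibroblast-like cells, from 31 mural-like cells with a count. The Mmp17 lead was not called with members kept in the clustering, without the top 5% of Scrublet scores or with sub-clusters of 2 lineages kept. The 6 fibroblast markers stood in mural-like cells at 0.307% to 22.9% of their fibroblast-like level (median 10.6%), none of them at 0, or at 1.60% to 22.9% for the 3 without removed low values, and their part in the mural-like levels was not tested. Adamts1, an aggrecanase also tied to vessel growth, was at 627 CPM in mural-like, 370 CPM in fibroblast-like and 348 CPM in endothelial-like cells, and the mural-like lead was not called. In hashtag A0309 mural-like cells, at 395 CPM, were below endothelial-like cells, at 408 CPM.

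Sub-populations of mural-like cells split these genes. In 155 cells led by the pericyte gene Kcnj8, Adamts12 was at 556 CPM, Timp3 at 6187 CPM and Mmp14 at 600 CPM. The 41 cells led by Pln, a gene of smooth muscle, had 57.7, 1843 and 137 CPM of the same genes. Adamts1 and Mmp17 ran the other way, at 1475 and 61.0 CPM in the Pln cells and 199.7 and 6.35 CPM in the Kcnj8 cells. Digestion-induced genes summed to 22957 CPM in the Pln cells and 12031 CPM in the Kcnj8 cells, and their part in Adamts1 was not tested.

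Endothelial-like cells led for Adamts9, an aggrecanase-group enzyme. It was at 142, 177, 159 and 105 CPM in endothelial-like cells, against 45.1, 61.4, 35.2 and 43.4 CPM in mural-like cells. Its level was 50.4 to 194 CPM across 7 endothelial-like sub-populations. Timp4 was at 19.2 CPM in 133 cells led by Ackr1 and Selp, genes of venules, and at 155 to 274 CPM in the 4 sub-populations led by Gm12002, Egr3, Alox12 and Gja5. Timp2 was the reverse, at 595 CPM in the Ackr1 cells and 90.4 to 379 CPM in the other 6 sub-populations. The 110 cells led by Prnd and Pgf, with the angiogenic gene Apln among their leading genes, had Adamts7 at 74.9 CPM, Mmp11 at 114 CPM and Mmp14 at 191 CPM, the highest of the endothelial-like sub-populations for each. The same 3 genes were at 3.203, 7.78 and 74.6 CPM in the Ackr1 cells. Over whole classes, Adamts7 was at 41.9 CPM in mural-like and 22.5 CPM in endothelial-like cells, and Mmp15, a membrane-bound MMP, at 47.7 and 38.9 CPM, neither with a called lead. Mmp28 just reached the limit at 5.02 CPM in endothelial-like cells. Adamts13, which cleaves von Willebrand factor, was at 22.7 CPM in T-cell-like, 18.6 in endothelial-like and 18.6 in NK- or ILC-like cells, with an order that changed between hashtags.

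Monocyte-like, T-cell-like and NK- or ILC-like cells added 3 narrow sources. Mmp8, the neutrophil collagenase, was at 27.8, 23.7, 35.3 and 63.0 CPM in monocyte-like cells, against 0.568 CPM in macrophage-like cells, and only 19 monocyte-like cells had a count. Most came from 58 cells led by Cd177 and Ly6a2, at 87.5 CPM, against 7.84 CPM in the other 96 monocyte-like cells. The 4 neutrophil markers in the table, S100a9, Csf3r, Retnlg and Cxcr2, were at 517, 186, 23.7 and 31.9 CPM in those 58 cells and 0, 60.8, 0 and 26.1 CPM in the other 96. The 96 cells in turn carried all 5 B-cell markers at 26.8 to 94.8 CPM. Whether another cell type within the class made the Mmp8 counts was not tested. Mmp25, a membrane-anchored MMP of leukocytes, was at 72.9, 97.0, 88.5 and 18.7 CPM in T-cell-like cells, against 3.87 CPM in dendritic-like cells. Its counts were concentrated in 29 cells led by Cd163l1, Blk and Trgc1, with Il17a among their leading genes, where 19 cells had a count (279 CPM, 222 to 347). It was 54.5 CPM in 81 cells led by Tnfrsf4 and Il1rl1, and 72 cells led by Ccr7 had no count, which allows up to 4.07 CPM at 3 counts.

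Adamts14, a relative of Adamts2, was at 194, 90.3, 101 and 122 CPM in NK- or ILC-like cells, against 41.0, 33.5, 49.2 and 25.5 CPM in mural-like cells. It was at 158 CPM in the 65 cells led by Gzma and 97.2 CPM in the 77 cells led by Xcl1, and 57 of 142 NK- or ILC-like cells had a count. Most Adamts14 counts lay elsewhere because those classes are larger: in the cells kept, macrophage-like cells held 44.8% and fibroblast-like cells 38.4% of them, against 3.004% in NK- or ILC-like cells. Adamts10 was highest in NK- or ILC-like cells too (103 CPM) but close to fibroblast-like cells (74.4 CPM), and no lead was called.

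Between monocyte-like and macrophage-like cells 16 members were tested. The monocyte-like class includes the cells with neutrophil or B-cell markers described above, and their part in these values was not tested. Mmp8 was higher in monocyte-like cells (5.21% of 11442 genes), and Mmp12, Mmp13, Timp2 and Adamts14 were lower (5.52%). Mmp12 was at 87.9 CPM in monocyte-like and 2207 CPM in macrophage-like cells (log2 ratio -4.63). Timp2 was at 181 CPM in monocyte-like and 1044 CPM in macrophage-like cells (-2.52). Mmp13 rested on 1 monocyte-like count and Adamts14 on 2. The count of called members was 5, but 15 when hashtags were assigned from the tag table, and 8 under 5 other settings. From the lists, 1 of 8 genes of activation and 3 of 12 substrates were higher in monocyte-like cells, and 1 of 8 genes of activation, 2 of 12 ADAM and ADAMTS-like genes and 2 of 4 of other collagen breakdown were lower. No gene of other inhibitors or of digestion was called. Plaur (234 against 83.0 CPM, 1.48) and Thbs1, thrombospondin-1 (352 against 8.05 CPM, 5.29), were higher in monocyte-like cells, and Ctsk (2.80 against 753 CPM, -7.63), Plau (16.8 against 66.4 CPM, -1.92) and Adamtsl5 (2.398 against 37.0 CPM, -3.48) were lower.

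The remaining 10 members stayed below 5 CPM in every class ranked. Mmp20, Mmp24, Adamts20, Mmp16, Mmp10 and Adamts3 had 0.0120 to 1.502 CPM at most in those classes. The other 4 passed 5 CPM in a state or sub-population. Mmp27 was at 6.51 CPM in the 1207 inflammatory-like fibroblasts (4.55 to 8.88 over hashtags), from 105 cells with a count. It was at 7.72 CPM in the 35 fibroblast-like cells led by Ifit1 and 6.52 CPM in the 61 macrophage-like cells led by Ifit2, from 4 and 3 cells. Adamts8 was at 5.48 CPM in the 910 Dpp4-progenitor-like cells (3.07 to 11.1 over hashtags), from 45 cells with a count, against 1.90 CPM in inflammatory-like cells, the next state. It was ahead of the other named states in each hashtag, by 0.31 or more on the log2 scale, and the lead was not called. Adamts18 was at 13.7 CPM in the Ackr1 endothelial-like cells, where 13 of 133 cells had a count, and at 5.15 CPM in the Prnd cells, from 3 cells. Adamts17 was at 11.5 CPM in 25 cycling endothelial-like cells, from 3 cells, and Adamts8 at 18.6 CPM in 26 mural-like cells led by Lrrc15, all of it from 1 cell.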

How the data were processed

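The members, the class and state marker lists and the gene lists were chosen with earlier results of these data known. The deposited matrix holds whole-number counts per gene and cell, per the file headers, and the authors also deposited hashtag tag counts and a hashtag for each cell. The labels do not say if counts are of reads or of molecules. The tools, per the submitters' processing notes, were cutadapt 3.4, Bowtie2 2.4.2, R 3.6.3 and R 4.1.2 with GRCm38. In 68 genes, Mmp2 and Mmp3 among them, low values were deposited as 0: the lowest value above 0 ranged over these genes from 5 to 68. Of the 15741 cells, 367 doublets named by the authors were removed, as were 182 cells under 200 genes or over 25% mitochondrial counts, which left 3255, 3475, 3857 and 4605 cells in hashtags A0309 to A0312.

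Counts were scaled to 10000 per cell. From 2000 variable genes, 30 principal components, 20 neighbours and Leiden resolution 1.0 gave clusters (Python 3.11.15, scanpy 1.11.5, leidenalg 0.10.2). Members and list genes were left out of the variable genes, except Col1a1 and Col3a1, which are also class markers. A cluster and its sub-clusters were named where at least 3 markers of a class were in at least 25% of cells. Each of these markers had to have a log2 ratio of 1 or more over the 25th percentile of the first clusters. With exactly 3 markers, a marker of the class also had to be among the leading genes. Sub-clusters holding markers of a further lineage stayed unnamed. States of 50 or more cells were named from at least 3 markers and 33% of the list, against the mean of the class's other sub-clusters. Scrublet marked 75, 105, 4 and 159 cells in the 4 hashtags and was used as an alternative only. In A0311 that was 0.104% of cells, too few to have worked there.

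Counts were summed per class or state, over the pool and per hashtag, and given as CPM. A call needed a log2 ratio of CPM plus 1 of 1 or more, or of -1 or less, both over the pool and in each hashtag where both groups had 20 cells or more, and 5 CPM or more in either group. With 1 pool there is no test. The procedure was tested on simulated data. Every member at 5 CPM or more in a named class or sub-cluster is named with its level and the others once with their range. From each list the called genes of largest ratio are named, up to 2 per direction between fibroblast-like and macrophage-like cells and 1 otherwise. Promoters came from RefSeq. Alternatives were other hashtag rules, resolutions, doublet rules, pseudocounts, filters and scalings, and leaving out each hashtag.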

Additional observations from a re-analysis of the deposited data

How the results depend on the processing

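Of 86 single results, 59 were called, and 45 changed their call in 1 or more of 17 other settings, of which 1 was added after the data were seen. In 3 cases the direction turned: Adamts12 in mural-like cells was at -0.65 with Leiden resolution 0.5 and -0.088 with 2.0, and Mmp2 in monocyte-like over macrophage-like cells, not called, was at -3.69 with sub-clusters of 2 lineages kept. The number of members with a leading class was 19, 14 with those sub-clusters kept, and 19 to 20 with a hashtag left out. With those sub-clusters kept, Adamts4, Adamts9, Adamts12, Mmp13, Mmp17 and Mmp25 lost their call and Mmp11 gained a call. In other settings Adamts14, Adamts16 and Timp3 lost theirs. Fibroblast-like over macrophage-like cells had 23 members called, 18 with a filter at 20 CPM and 25 with no filter. That number was 23 to 23 with a hashtag left out. Monocyte-like over macrophage-like cells were the least stable: 5 members were called, 15 with hashtags from the tag table, which left fewer than 20 monocyte-like cells per hashtag, and 8 with Leiden resolution 0.5, with 2.0, with members kept in the clustering, without the top 5% of Scrublet scores and with sub-clusters of 2 lineages kept. It was 5 to 7 with a hashtag left out. For lipid-associated-like over resident-like cells the count was 3, and 3 to 6 with a hashtag left out, 6 being without A0312. At Leiden resolution 0.5 it was not run, as no resident-like state was named. Between Dpp4-progenitor-like and preadipocyte-like cells the count was 9, and 9 to 10 with a hashtag left out. Leading states were 2, 8 at Leiden resolution 0.5, 4 with members kept in the clustering, without the top 5% of Scrublet scores or with states named from 3 markers alone, and 2 to 4 with a hashtag left out, 4 being without A0310. Apart from the tag table and leave-one-out settings, which judge fewer cells or hashtags, the cause was not tested. No paired analysis was possible because the pool is 1 sample. Depth limits the small classes most.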
